A study of Mus musculus with 10 samples.

Results

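Matrix metalloproteinases and their tissue inhibitors, the TIMPs, were examined in RNA from mouse peritoneal macrophages. The genes were listed by name as rows of the count table of the series, and all 10 of them (Mmp2, Mmp8, Mmp9, Mmp12, Mmp13, Mmp14, Mmp19, Timp1, Timp2 and Timp3) had a row among 23382 NCBI gene identifiers and 39488 rows in all. The metalloproteinases are zinc-dependent enzymes, made as inactive proenzymes, that cut collagens, elastin and other proteins of the extracellular matrix. TIMPs bind the active site of these enzymes and block it. In atherosclerotic plaques, macrophages are a known source of both, and the balance between them is studied for its bearing on the collagen of the fibrous cap.

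Cells came from C57BL/6 mice labelled as 8 weeks old and were collected from the peritoneal cavity on the third day after an injection of thioglycollate, an irritant that draws monocyte-derived macrophages into the cavity. The control group of 5 libraries is labelled untreated. The ox-LDL group of 5 libraries was primed with LPS (100 ng/ml), a bacterial product sensed by macrophages, and then given oxidized low-density lipoprotein (ox-LDL, 100 µg/ml) for 16 h. Whether the control cells also received LPS can be read both ways in the study, so the labels were followed, and effects of LPS and of ox-LDL cannot be told apart in this comparison. The series describes 5 biological replicates per group without naming the animals, and p-values measure the spread between these libraries. The libraries were not equally distant by chi-square of counts over degrees of freedom. Control replicates 2 and 3 stood at 9.53, with the next control pair at 32.0. Ox-LDL replicates 3 and 4 stood at 22.4, with the next pair at 69.9. A shared origin of such pairs was not tested.

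The total count was 20094647 to 20687289 per control library and 19257131 to 20358017 per ox-LDL library. All 8 macrophage markers were detected and tested. Their summed level was 23168 to 42854 CPM, the count scaled to a common library size, in controls and 13363 to 28376 in the ox-LDL group, and it was mostly Lyz2, whereas Adgre1 (4.21-fold) and Cd14 (4.71-fold) were called higher and the other 6 were not called. Ox-LDL replicate 2 stood apart, with a TMM scaling factor of 0.593 against 0.837 to 1.19 in the other 9 libraries, and so did control replicate 5, which held 387 counts of the cytokine gene Il1b against 3 to 8 in the other controls. Ox-LDL replicate 5 held 49511 counts of Il1b against 422 to 1335 in the other treated libraries. The fitted fold changes and calls were therefore also computed without these 3 libraries. Levels, shares, sums, ratios and correlations below used all 10 libraries.

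Start sites in the RefSeq table of GRCm38.p6 were found for 7 of the 10 genes, with 8 promoter windows from 250 bases before to 50 bases after the start. Mmp13 and Mmp12 are shown because their windows hold the AP-1 motif TGANTCA, bound by Fos and Jun family factors, and Timp1 and Timp2 are shown because they had the highest and the lowest fitted fold change of the 10. Each sequence runs 5′ to 3′ on the strand of the gene from 80 bases before to 10 bases after the start, with the AP-1 motif and the TATA box TATAAA in capitals.

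Mmp13, chr9:7272434-7272523, plus strand: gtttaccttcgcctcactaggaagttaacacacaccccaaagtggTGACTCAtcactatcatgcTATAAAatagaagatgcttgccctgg

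Mmp12, start at 7347374, chr9:7347294-7347383, plus strand: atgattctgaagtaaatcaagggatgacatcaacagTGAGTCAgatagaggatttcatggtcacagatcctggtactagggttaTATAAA

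Timp1, chrX:20870086-20870175, plus strand: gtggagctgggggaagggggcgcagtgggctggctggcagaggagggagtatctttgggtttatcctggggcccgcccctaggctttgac

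Timp2, chr11:118355402-118355491, minus strand: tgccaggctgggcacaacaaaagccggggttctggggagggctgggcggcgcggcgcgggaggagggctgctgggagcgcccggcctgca

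In Mmp13 the AP-1 motif began 35 bases and the TATA box 16 bases before the start. At the second start of Mmp12 the AP-1 motif began 44 bases before the start and the TATA box 4 bases after it. Of 32851 promoter windows of the same length, 7.81% held the AP-1 motif and 13.6% the TATA box, both strands counted. The window of Mmp8 held the TATA box on the opposite strand, 3 bases before the start, and the first start of Mmp12 held the NF-kB consensus on the opposite strand, 129 bases before the start, which 8.46% of windows hold. The windows of Mmp14, Timp1, Timp2 and Timp3 held none of the 3 motifs. These are matches of letters and no measure of binding.

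Treated macrophages had higher levels of 4 of the 10 genes (adjusted p below 0.01, edgeR quasi-likelihood test over 12654 genes). These were the inhibitors Timp1 and Timp3, the membrane-type metalloproteinase Mmp14 and the gelatinase Mmp2. The same criterion called 9.4% of all genes tested higher and 5.35% lower. No member was called lower by edgeR at this threshold, although 3 members were lower and 6 higher at an unadjusted p below 0.05, beside 15.8% and 23% of all genes tested. DESeq2, limma-voom and limma on FPKM each called 1 member lower, Timp2. All 4 called genes also had a log2 fold change above 2, which 4.78% of genes tested reached with the same adjusted p in the upward direction. The 10 genes had a median log2 fold change of 2.10, beside 0.10 over all genes tested, with 6 positive and 4 negative. They were chosen with earlier results of these data known, so this contrast is description alone. Every member passed the filter on low counts, Mmp2 only through the ox-LDL group, since its counts were over the limit in 2 of 5 control and 5 of 5 ox-LDL libraries. In bulk RNA, a change in the number of cells of a type and a change in RNA per cell cannot be told apart.

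**Figure D1:**
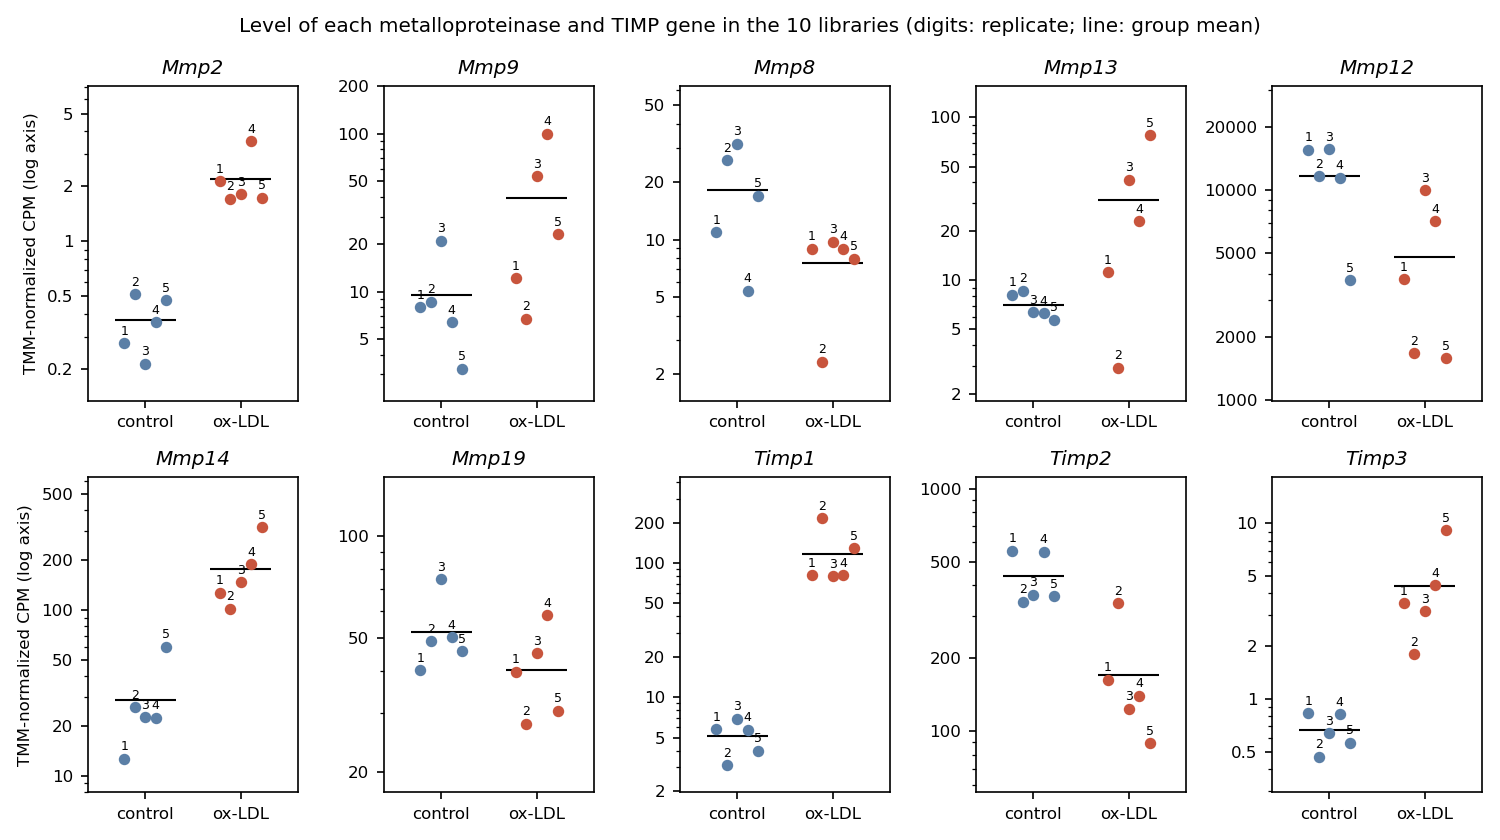
TMM-normalized CPM (log axis) of the 10 genes in control (blue) and ox-LDL (red) libraries, 1 point per library with its replicate number and the group mean as a line. Points of the groups are separate for Mmp2, Mmp14, Timp1, Timp2 and Timp3 and overlap for the other 5 genes.

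The gelatinases Mmp2 and Mmp9 cut denatured collagen and the collagen of basement membranes. Mmp2 (chr8:95351227-95377316 in mm9) was near the detection limit in controls, with 0.277, 0.514, 0.214, 0.361 and 0.478 CPM in replicates 1 to 5, from 5 to 12 counts per library. In the ox-LDL group it was at 2.13, 1.71, 1.80, 3.54 and 1.73 CPM, from 20 to 74 counts. Mmp2 passed the filter on low counts only through this group, so its separation and call are description alone. Every treated library was above every control, and the rise was 5.84-fold (log2 fold change 2.55 ± 0.36 SE, n = 5 per group, edgeR adjusted p = 3.97e-04). The level stayed low even so, at 0.732 ± 0.387 FPKM (SD, n = 5) after treatment, FPKM being the count scaled to transcript length and depth.

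Mmp9 (chr2:164766280-164781350 in mm9) was at 8.02, 8.64, 21.1, 6.44 and 3.26 CPM in control replicates 1 to 5. The treated libraries held 12.2, 6.76, 54.2, 101 and 23.2 CPM. They ran from the level of the controls, in ox-LDL replicate 2, to well above it in replicates 3 and 4, a range of 14.9-fold within the group. The difference did not pass the threshold (log2 fold change 2.05 ± 0.70 SE, n = 5 per group, edgeR adjusted p = 0.0470). It leaned on ox-LDL replicate 4, without which the log2 fold change was 1.35.

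Mmp8 and Mmp13 are collagenases, which cleave intact fibrillar collagen, and both lie with Mmp12 in a cluster of metalloproteinase genes at chr9:7272514-7699585 of mm9. Mmp8, known as the neutrophil collagenase, had 11.0, 25.9, 31.5, 5.41 and 16.9 CPM in controls. It had 8.96, 2.31, 9.75, 8.95 and 7.94 CPM in the ox-LDL group. The treated libraries lay within or below the control range, and the difference was not called (log2 fold change -1.25 ± 0.47 SE, n = 5 per group, edgeR adjusted p = 0.0670).

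Mmp13, the main collagenase of adult mice, was even among controls at 8.19, 8.64, 6.38, 6.28 and 5.73 CPM. After treatment it was at 11.2, 2.91, 41.5, 23.1 and 78.0 CPM. Of the treated libraries, 4 were above all controls and 1, replicate 2, was below all of them, so that the range within the treated group was 26.8-fold against 1.51-fold in controls. The log2 fold change of 2.15 ± 0.63 SE (n = 5 per group) had an edgeR adjusted p of 0.0260 and was not called. Without ox-LDL replicate 2 it was 2.41 with an adjusted p of 0.00171, past the threshold, and without ox-LDL replicate 5 it was 1.45 with an adjusted p of 0.0760.

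Mmp12, the macrophage elastase, was among the most abundant transcripts of control cells, where it ranked between 4 and 34 among NCBI genes by FPKM and took 0.419% to 1.81% of all counts. In treated libraries 1 to 5 its ranks were 25, 256, 8, 12 and 154, and it took 0.0979% to 1.05% of counts. Its level was 15589, 11643, 15662, 11481 and 3715 CPM in controls and 3772, 1678, 9973, 7126 and 1586 CPM in the ox-LDL group. The mean was lower after treatment, at 4827 ± 3650 against 11618 ± 4863 CPM (SD, n = 5 per group), but the groups overlapped because control replicate 5 lay below 3 of the 5 treated libraries. The difference was not called (log2 fold change -1.27 ± 0.56 SE, n = 5 per group, edgeR adjusted p = 0.119), and over the alternatives its adjusted p was between 0.0253 and 0.215. In mm9 the end of Mmp12 (chr9:7344381-7369499) overlaps exons of Mmp1b on the opposite strand, which had at most 2 counts in any library.

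Mmp14, a membrane-bound metalloproteinase that activates the proenzyme of Mmp2 and cuts collagen at the cell surface, rose (chr14:55050441-55060095 in mm9). It was at 12.7, 26.0, 22.6, 22.5 and 60.0 CPM in controls and at 127, 102, 147, 189 and 314 CPM in the ox-LDL group. All treated libraries were above all controls, and control replicate 5 was the highest control. The rise was 6.11-fold (log2 fold change 2.61 ± 0.43 SE, n = 5 per group, edgeR adjusted p = 0.00104), and it was 3.06 on the log2 scale without control replicate 5. The separation depended on the TMM scaling of ox-LDL replicate 2, since by library size alone that library had 60.3 CPM and control replicate 5 had 69.1, while the call held under that scaling too (log2 fold change 2.40, edgeR adjusted p = 0.00308).

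Mmp19 (chr10:128228009-128237880 in mm9), a broad-acting secreted metalloproteinase, had the smallest fitted difference of the members. Controls held 40.2, 49.0, 74.8, 50.2 and 45.6 CPM and treated libraries 39.7, 27.8, 45.1, 58.4 and 30.4 CPM. The groups overlapped and the fitted difference was small (log2 fold change -0.37 ± 0.24 SE, n = 5 per group, edgeR adjusted p = 0.287). An exon of 1110012D08Rik on the other strand overlaps Mmp19, and use of strand in counting is not given in the sources used here.

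Timp1 (chrX:20447292-20451861 in mm9), a secreted inhibitor that is inducible in many cell types, had 5.75, 3.12, 6.93, 5.72 and 4.00 CPM in controls. In the ox-LDL group it had 81.4, 216, 80.1, 81.1 and 128 CPM. No treated library came near a control, and the rise was 23.0-fold (log2 fold change 4.52 ± 0.37 SE, n = 5 per group, edgeR adjusted p = 1.42e-05). The gene lies in an intron of Syn1 on the opposite strand, which had 7 to 138 counts per library against 1643 to 2527 of Timp1 in the treated libraries. The Timp1 transcript is 747 bases long, and at that length ox-LDL replicate 2 had a library-wide trend of 1.28 on the log2 scale toward short transcripts. With each library's trend on length removed the log2 fold change of Timp1 was 4.59, and without that library it was 4.14.

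Timp2 (chr11:118162383-118217054 in mm9), which inhibits metalloproteinases and also takes part in the activation of Mmp2 by Mmp14, had high levels in control cells. It was at 555, 342, 365, 549 and 361 CPM there and at 163, 338, 124, 140 and 89.6 CPM in the ox-LDL group. All treated libraries were below all controls, ox-LDL replicate 2 only just, and the other 4 were at most 163 CPM. The log2 fold change was -1.35 ± 0.35 SE (n = 5 per group) with an edgeR adjusted p of 0.0134, just outside the threshold. Without ox-LDL replicate 2 it was -1.79 with an adjusted p of 2.11e-04, and by library size alone, where that library had 200 CPM against 394 to 541 in controls, it was -1.60 with an adjusted p of 0.00106. Over 25 alternatives the sign was negative throughout and the threshold was passed in 9.

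Timp3 (chr10:85763117-85812251 in mm9), an inhibitor that is held in the matrix and also blocks ADAM proteases, was scarce. Controls held 0.830, 0.471, 0.642, 0.824 and 0.565 CPM, from 11 to 16 counts per library. Treated libraries held 3.52, 1.80, 3.17, 4.45 and 9.14 CPM, from 21 to 153 counts. The groups were separate and the rise was 6.62-fold (log2 fold change 2.73 ± 0.43 SE, n = 5 per group, edgeR adjusted p = 7.14e-04). Exons of Syn3 on the opposite strand overlap the gene, and Syn3 had 4 to 19 counts per library.

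**Figure D2:**
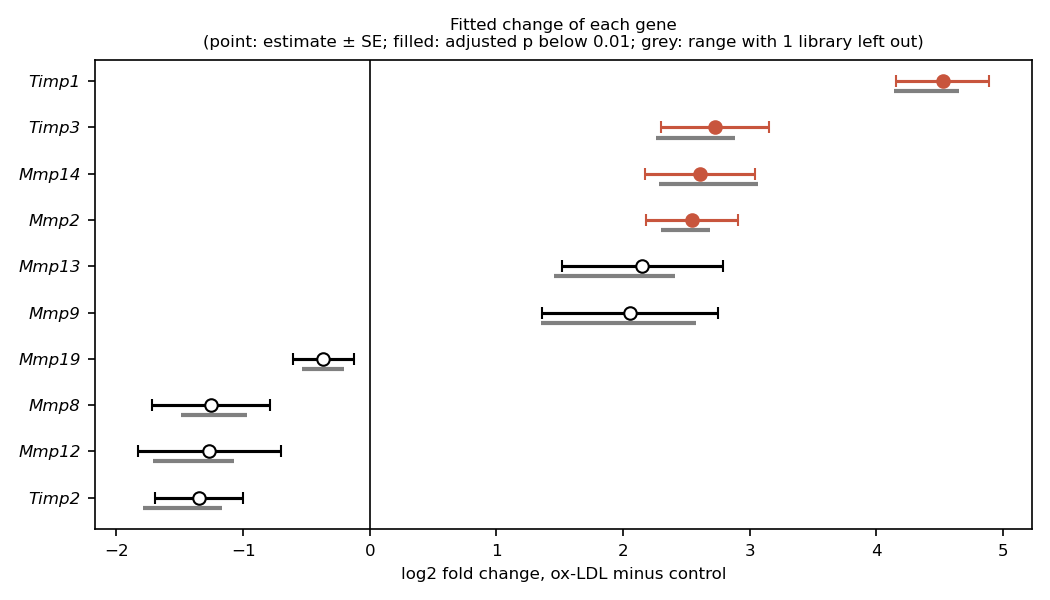
Log2 fold change of each gene (ox-LDL minus control, horizontal axis) with its SE, filled where the edgeR adjusted p was below 0.01, and as a grey bar the range when each of the 10 libraries was left out in turn. No grey bar reached 0, and the 4 filled points lie between 2.55 and 4.52.

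Between groups without overlap, 4 of the 10 genes were higher and 1 was lower, beside 11.6% and 9.11% of all genes tested. Mmp2, 1 of the 4, passed the filter only through the ox-LDL group, so its separation is description alone. Ox-LDL replicate 2 was the lowest treated library for 7 of the 10 genes and the highest for Timp1 and Timp2, so it widened the spread of the treated group for most of them. Leaving out the 3 libraries that stood apart gave 5 genes higher (the 4 above and Mmp13) and 1 lower (Timp2). That fit also called more of all genes, 3599 of 13211 tested in either direction, against 1866 of 12654 in the reported fit.

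The order of the genes by level was read from FPKM, which accounts for transcript length. In controls the order was Mmp12, Timp2, Mmp19, Mmp14, Mmp8, Timp1, Mmp9, Mmp13, Timp3 and Mmp2, from 6940 to 0.138 FPKM on average. Only 3 steps of that order were free of overlap, namely Mmp12 to Timp2 (131 FPKM), Timp2 to Mmp19 (17.4 FPKM) and Mmp13 (2.96 FPKM) to Timp3 (0.156 FPKM). After treatment the order was Mmp12, Timp1, Mmp14, Timp2, Mmp9, Mmp19, Mmp13, Mmp8, Timp3 and Mmp2. The steps from Mmp12 (2856 FPKM) to Timp1 (133 FPKM) and from Timp1 to Mmp14 (49.3 FPKM) were free of overlap there, and each of the other neighbours overlapped in range. Some overlapping neighbours still kept their order within all 5 libraries of a group. These were Timp1 over Mmp9 in controls, and Timp2 over Mmp9, Mmp13 over Mmp8 and Mmp8 over Timp3 in the ox-LDL group.

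By FPKM, Timp2 was the main inhibitor transcript in every control library and Timp1 in every treated library. Timp2 was 94.7% ± 1.63 of the summed TIMP FPKM in controls and 24.2% ± 6.57 in the ox-LDL group, whereas Timp1 went from 5.18% ± 1.62 to 75.2% ± 6.35 (SD, n = 5 per group). The ratio of Timp1 to Timp2 depends on no scaling factor of a library. It was 0.0418 to 0.0874 in controls and 2.30 to 6.61 in treated libraries. Neither this ratio nor the shares and sums were corrected for each library's trend on transcript length. In ox-LDL replicate 2 that trend was 1.28 on the log2 scale at the length of Timp1 and -0.400 at that of Timp2. Timp1 over Timp2 in that library therefore rests on uncorrected values. In the other treated libraries the trend at Timp1 ran the other way, from -0.498 to -0.348. Controls had a trend there too, 0.447 in replicate 1 and 0.358 in replicate 4, and from -0.161 to -0.110 in the other controls. The summed TIMP level differed far less than its parts, at 138 ± 18.5 FPKM in controls and 178 ± 28.6 in the ox-LDL group, and the ranges of 118 to 162 and 151 to 224 FPKM overlapped.

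**Figure D3:**
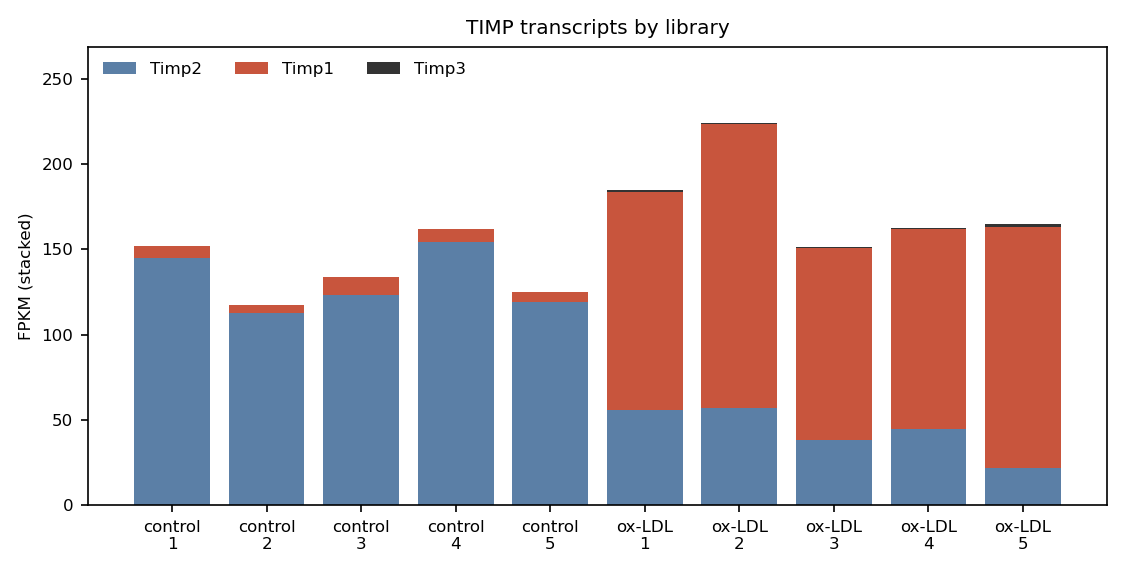
FPKM of Timp2 (blue), Timp1 (red) and Timp3 (dark) stacked for each of the 10 libraries. Timp2 makes up 91.8% to 95.9% of each control bar, and Timp1 69.4% to 86.0% of each ox-LDL bar.

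The metalloproteinase transcripts were mostly Mmp12 in every library. It was 98.0% to 99.7% of the summed FPKM of the 7 proteases in controls and 86.2% to 98.3% in the ox-LDL group. The sum was 6982 ± 2911 FPKM in controls and 2947 ± 2379 in treated libraries, with overlapping ranges. Without Mmp12 the other 6 summed to 42.0 ± 15.5 and 91.2 ± 43.1 FPKM (SD, n = 5 per group). Within those 6, Mmp14 took 21.9% ± 11.5 in controls and 56.8% ± 10.6 after treatment, while Mmp19 went from 42.7% ± 7.93 to 15.0% ± 5.38.

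**Figure D4:**
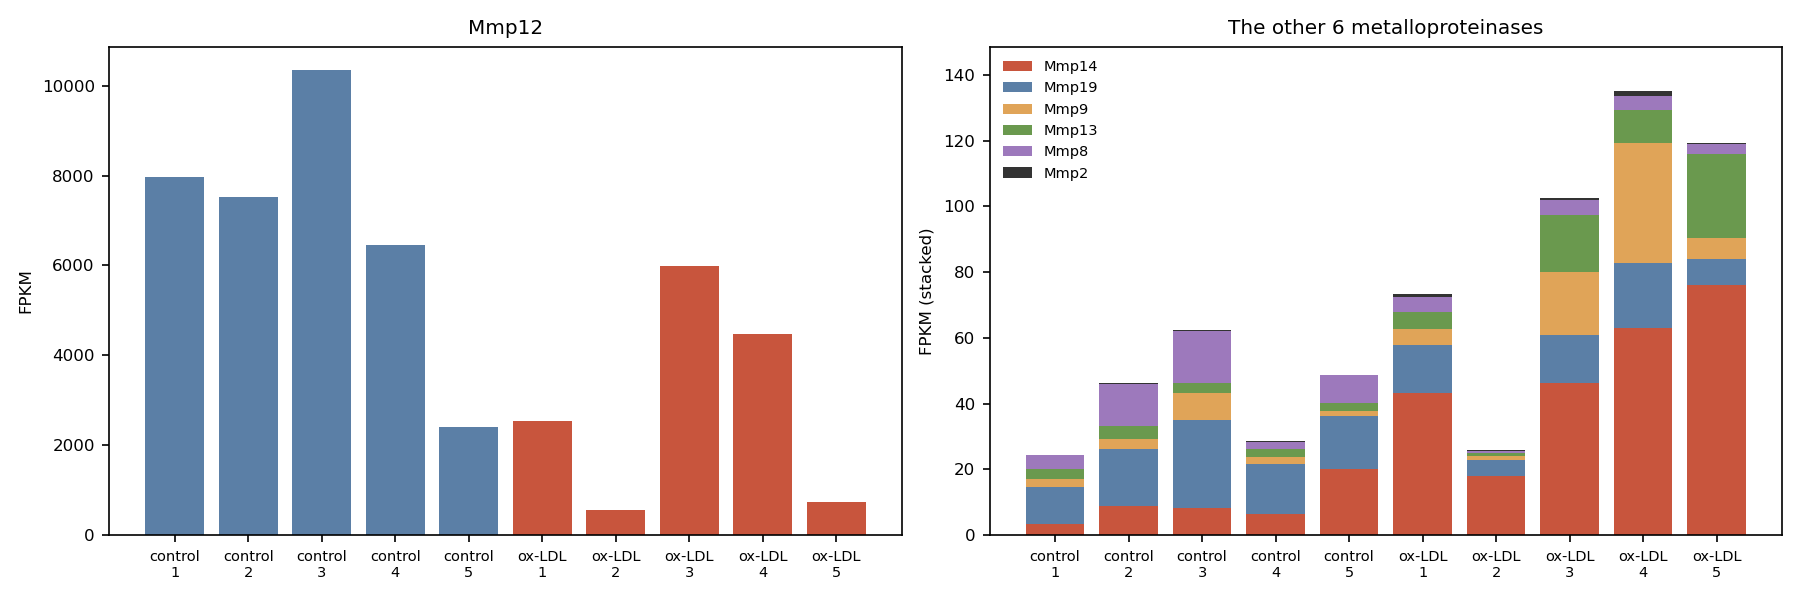
Left, FPKM of Mmp12 in each library. Right, on a smaller scale, FPKM of the other 6 metalloproteinases stacked. Mmp12 is between 745 and 5982 FPKM in 4 of the ox-LDL libraries and at 556 in replicate 2, and the stack on the right is largest in ox-LDL replicate 4 at 135 FPKM and smallest in control replicate 1 at 24.3.

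The summed protease level over the summed inhibitor level was 50.8 ± 22.4 in controls and 18.1 ± 15.9 in the ox-LDL group (SD, n = 5 per group), with ranges of 19.6 to 77.7 and 2.60 to 40.2. This ratio of transcripts followed Mmp12. Without Mmp12 it was 0.317 in controls and 0.548 after treatment, in the opposite order, and the ranges of 0.160 to 0.465 and 0.115 to 0.829 overlapped.

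Of 17 further metalloproteinase and TIMP genes, 16 had a row and 4 were abundant enough to test, with a median log2 fold change of 0.99. In the reported fit, and by DESeq2 and limma-voom, 0 were called higher and 1 lower. The reported fit called 9.4% of all genes tested higher and 5.35% lower. At an unadjusted p below 0.05 in edgeR 2 were higher, beside 23% of all genes tested. Mmp27, a neighbour of Mmp8 in the chromosome 9 cluster, was called lower, from 6.60 ± 1.80 to 1.48 ± 0.928 CPM (log2 fold change -2.14 ± 0.42 SE, n = 5 per group, edgeR adjusted p = 0.00290), except that the adjusted p was just above the threshold without ox-LDL replicate 3. Mmp3, named here after its values were seen, had 0 to 4 counts in controls and 9 to 55 in treated libraries and was under the filter. With so few control counts Mmp3 could pass only through the ox-LDL group, so its calls in other fits are description alone. It was called higher by edgeR with no filter beyond 1 count and wherever leaving out a library let it pass the filter, that is without any 1 of the 5 controls and without ox-LDL replicate 2. Without the 3 libraries that stood apart, Mmp3 and Mmp7 were called higher.

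Among regulators of proteolysis around the cell, Serpinb2 and Lcn2 were higher after treatment. Of 15 regulator genes with a row, 11 were tested, 3 were called higher and 0 lower, with a median log2 fold change of 1.00. The same fit called 9.4% of all genes tested higher and 5.35% lower. Serpinb2, a serine protease inhibitor, rose by a log2 fold change of 5.23 ± 0.55 SE (edgeR adjusted p = 5.76e-05). For Lcn2, lipocalin-2, the log2 fold change was 6.50 ± 0.58 SE (edgeR adjusted p = 2.23e-05).

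Of 9 tested genes of the ADAM sheddase list, 1 was called higher and 1 lower, beside 9.4% and 5.35% of all genes tested. Their median log2 fold change was 0.58. The list also holds genes that are not ADAM genes, among them Rhbdf2, and no ADAM gene was called higher in the reported fit. Rhbdf2, which carries Adam17 to the cell surface, rose (log2 fold change 1.83 ± 0.29 SE, edgeR adjusted p = 8.39e-04), and missed the threshold in the FPKM fits (0.0101 and 0.0111). Adam10, a sheddase of many membrane proteins, fell 1.93-fold (log2 fold change -0.95 ± 0.21 SE, edgeR adjusted p = 0.00556), but the call was lost when any control library was left out, with adjusted p values of 0.0121 to 0.0157, and also without ox-LDL replicate 3 (0.0140) or 4 (0.0168), with library size alone (0.0400) and in both FPKM fits (0.0195 and 0.0238).

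Genes for matrix proteins, among them substrates of these enzymes, included the fibrillar collagen genes Col1a1 and Col1a2, which were called higher, and Fn1 (fibronectin) and Spp1 (osteopontin), which were not. Of 14 tested, edgeR called 10 higher and none lower, beside 9.4% and 5.35% of all genes, with a median log2 fold change of 2.24. None was lower by DESeq2 or limma-voom, nor at an unadjusted p below 0.05 in edgeR. Counts in controls were low for many of them. Of the 8 genes over the filter's limit in all controls, 4 were called higher, and the other 6 called genes were under it in at least 1 control. Those with the largest change were of the second kind, namely the basement membrane collagen genes Col4a1, from 0.201 to 3.87 CPM, and Col4a2, from 0.213 to 3.51 CPM, perlecan (Hspg2), from 0.679 to 5.81 CPM, and fibrillin-1 (Fbn1), from 0.372 to 3.09 CPM. These 4 were tested only through the ox-LDL group, as control counts were 2 to 10 for Col4a1, 1 to 10 for Col4a2, 5 to 30 for Hspg2 and 4 to 13 for Fbn1. The number called higher fell to 5 without control replicate 2 or 4 and to 6 without control replicate 1 or 5 or ox-LDL replicate 1, 3 or 4. It was 11 without ox-LDL replicate 2, 5 with library size alone, 6 with upper-quartile factors and 1 of 5 tested in both FPKM fits. Col1a1, Col1a2, Col4a1, Col4a2 and Fbn1 were called with each library left out, and Hspg2 was not without control replicate 2 or 4.

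The fibroblast gene Dcn (decorin) was higher in the same libraries, and stromal cells also make Mmp2, Mmp14, Timp3 and these matrix proteins. Dcn had 218 to 710 counts in controls and 1048 to 1879 in treated libraries (log2 fold change 1.57 ± 0.31 SE, edgeR adjusted p = 0.00320), a call lost without the 3 libraries that stood apart (adjusted p = 0.0146). It made up most of the summed level of 11 mesothelial and stromal markers, 14.1 to 49.5 CPM in controls and 55.7 to 116 CPM in the ox-LDL group, scaled by library size. The other 3 tested markers of that list, Wt1, Pdgfra and Gpm6a, were not called. The low counts of the rest did not all follow, with Upk3b at 6 to 17 in controls and 0 to 5 after treatment, Postn at 7 to 24 and 0 to 16, Lum at 1 to 5 and 0 to 1, and Msln at no more than 6. The part of stromal RNA in the results for Mmp2, Mmp14, Timp3 and the matrix genes was not tested. Neutrophil markers, of interest for Mmp8 and Mmp9, summed to 7.96 to 16.7 CPM in controls and 13.8 to 91.0 CPM in the ox-LDL group. Most of this was S100a8, the only marker of that list abundant enough to test. It was called higher (log2 fold change 2.76 ± 0.55 SE, edgeR adjusted p = 0.00310). The call was lost without control replicate 2 (adjusted p = 0.0107), without the 3 libraries that stood apart (0.0140) and with no filter beyond 1 count (0.0220). The defining granule genes Elane and Mpo had at most 3 counts in any library. Ltf, with 8 to 31 counts in controls and 0 to 2 after treatment, and Cxcr2, with 6 to 13 and 0 to 2, went the other way. Eosinophil and mast cell markers summed to 3.40 to 15.3 and 0.678 to 4.89 CPM, dendritic cell markers to 1.35 to 2.74 and 2.23 to 4.04, T cell markers to 0.455 to 1.04 and 1.25 to 3.77, B cell markers to 1.13 to 2.85 and 0.659 to 3.52, and resident macrophage markers to 6.90 to 14.7 and 8.09 to 16.4 CPM. Among single markers, Siglecf was called lower (9.96-fold), from 51 to 132 counts in controls to 5 to 12 after treatment. Clec9a (5.03-fold, from 5 to 11 counts to 16 to 42) and Timd4 (9.29-fold, from 0 to 5 to 18 to 43) were called higher. With so few counts in the lower group, these calls are description alone. The part of the cells of these lists in the results was not tested either.

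The genes most like each called member across the 10 libraries, among 7638 genes with a mean of at least 10 CPM, are given as a description, since all such genes share the difference between groups and the scaling of the same libraries. Nearest to Mmp14 were Cry1 (Pearson r = 0.996, Spearman rho = 0.976, n = 10), Rrbp1 and Tap2. Nearest to Timp1 were Slamf6 (r = 0.992, rho = 0.842, n = 10), Lmo4 and Tcp11l1. For Timp3 the nearest was Hmox1, heme oxygenase 1 (r = 0.979, rho = 0.855, n = 10), followed by Pstpip2 and Trafd1, and for Mmp2 it was AU020206 (r = 0.970, rho = 0.782, n = 10), followed by Wnk2 and Gm1966.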

How the data were processed

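RNA of 5 control and 5 ox-LDL libraries was sequenced on a BGISEQ-500. The authors checked reads with FastQC, aligned them to the mm9 build (HISAT2 2.0.5) and used SAMtools 1.4 for sorting and StringTie 1.3.3.13 for assembly. The authors deposited estimated counts per gene, not normalized, of which 13.6% were not whole. The length-scaled values that the authors deposited per library carry no unit name and were read as FPKM, because over 2223 genes with a value above 20 the quotient of count, value and library total varied by a median of 0.784% between libraries. The counting step is not given in the sources used here.

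Estimated counts were rounded, 9788 circular RNA rows left out, and genes filtered with filterByExpr, normalized by TMM and tested with edgeR 4.0.16 (quasi-likelihood, robust, R 4.3.3) and Benjamini-Hochberg adjustment. Genes were called at an adjusted p below 0.01. Standard errors were derived from the F statistic. Marker sums used library size without TMM. Symbols and promoters came from RefSeq (GRCm38.p6), coordinates from an mm9 annotation. Named were all members and the 3 genes most like each called member. Each related list gave at most 4 called genes per direction, by largest change and a mean of 1 CPM or more in either group. Named beyond this rule were Col1a1, Col1a2, Col3a1, Fn1, Spp1, Mmp3 and Mmp7. Members and lists were chosen with earlier results of these data known. Alternatives were DESeq2 1.42.0, limma 3.58.1 (voom, and log2 of FPKM + 1 or + 0.1), other scalings, filters and rows, a correction for transcript length, the replicate number as a block and each library left out. The test was run on simulated data first. Values of 1 called gene of the regulator list are not reported here.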

Additional observations from a re-analysis of the deposited data

Results flagged for a closer look

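Of 26 sets of 5 libraries examined, 5 had a library far from the others (gap to the nearest over the whole range above 0.71), where chance gives about 1 in 20. Mmp2 was at 3.54 CPM in ox-LDL replicate 4 and 2.13 in the next library. Mmp8 was at 2.31 CPM in ox-LDL replicate 2, with the next at 7.94. Mmp14 was at 60.0 CPM in control replicate 5, with the next control at 26.0. The ratio of Timp1 to Timp2 was 0.0874 in control replicate 3, with the next at 0.0507, and 6.61 in ox-LDL replicate 5, with the next at 2.97.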

How the results depend on the processing

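No member changed sign in any of the alternatives that tested it. Timp1 and Mmp14 kept their call in all 25, and Mmp2 and Timp3 in all 23 that tested them, since both limma fits on FPKM left them out, so those fits called 2 members higher. The count of members called lower, 0 in the reported fit, was 1 (Timp2) with upper-quartile factors, library size alone, DESeq2, limma-voom, no filter beyond 1 count, both limma fits on FPKM, an adjusted p below 0.05 and, added after the data were seen, without the 3 libraries that stood apart together. With 1 library left out it was 0 to 1, the 1 without ox-LDL replicate 2. DESeq2 also called Mmp9 and Mmp13 higher. The ratio of summed protease to summed inhibitor FPKM, 50.8 in controls, was 0.317 without Mmp12 and 983 without Timp2, and 18.1 in the ox-LDL group was 0.548 without Mmp12. Over all genes, 1866 were called in the reported fit, 3009 by DESeq2, 2876 with the length trend removed, 3257 without ox-LDL replicate 2, 3599 without the 3 libraries, and 1262 to 3257 with 1 library left out. Against 0.10 in the reported fit, the median log2 fold change of all genes was -0.05 with upper-quartile factors and -0.09 with library size alone. With the replicate number as a block in edgeR, 4 members were higher and 0 lower and 1434 genes were called. Dcn (adjusted p = 0.0110), Adam10 (adjusted p = 0.0168) and S100a8 (adjusted p = 0.0202) lost their call. Same-numbered libraries correlated at -0.285 to 0.443 and not every library was closest to its own number, so the numbers were not taken as pairs. Mmp2 and Timp3 rested on 5 to 16 counts per control library, which limits the precision of their folds.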
